A study of Mus musculus with 6 samples.

Results

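Matrix metalloproteinases and their tissue inhibitors (TIMPs) were examined in IL-11+ and IL-11- fibroblasts from the colon of mice with colitis. The 10 genes were taken by symbol (*Mmp2*, *Mmp3*, *Mmp9*, *Mmp10*, *Mmp13*, *Mmp14*, *Mmp19*, *Timp1*, *Timp2* and *Timp3*) from the 20327 gene symbols with tag counts. All 10 had a row, and 9 were among the 9334 genes that reached 10 tags in 3 or more of the 6 libraries and were tested. *Mmp9* was not.

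The mice were C57BL/6 *Il11-Egfp* reporters, 9 to 15 weeks old, that drank 1.5% dextran sulfate sodium (DSS) for 5 days and regular water afterwards. They carried a bacterial artificial chromosome with *Egfp* placed inside *Il11*, so that EGFP marks cells that use the *Il11* promoter of the transgene. On day 7, colon cells without Ter119, CD45, CD31 and EpCAM were sorted by EGFP. The groups were EGFP-Positive cells (IL-11+ fibroblasts) and EGFP-Negative cells (IL-11- fibroblasts), with 3 libraries each. Both groups shared the reporter and the DSS, and no untreated mice were part of the comparison. RNA was counted as 5′ tags, short reads assigned to genes, with 1057170, 1078179 and 1169817 tags in the IL-11- libraries and 1046538, 1022851 and 1049048 in the IL-11+ libraries. A floor of 3 tags corresponds to 2.56 to 2.93 CPM (tags per 1000000 tags of the library), and it covers counting error only.

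*Il11* itself checked the sort. It had 28, 51 and 89 tags in IL-11- libraries 1, 2 and 3 and 1357, 732 and 2658 tags in IL-11+ libraries 1, 2 and 3. Every IL-11+ library was far above every IL-11- library. The transcript of the reporter begins with *Il11* sequence, and its tags cannot be told apart from those of the gene. The sort was not fully pure according to the methods.

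Matrix metalloproteinases are zinc-dependent proteases that cleave collagens, proteoglycans and other proteins of the extracellular matrix. Most are secreted as inactive proenzymes, some are anchored in the cell membrane, and TIMPs bind and block the active enzymes. In the inflamed gut, stromal cells are a known source of these proteases, which take part in ulceration and in the remodelling of the healing mucosa.

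Among the members, both stromelysins and a collagenase had the widest differences. *Mmp3* encodes stromelysin-1, which cleaves many matrix proteins and activates other proenzymes. It had 261, 197 and 339 tags in IL-11- libraries 1 to 3, and 3514, 1376 and 2507 tags in IL-11+ libraries 1 to 3. The lowest IL-11+ library was well above the highest IL-11- library. After normalization, *Mmp3* stood at 238 ± 47.4 CPM in IL-11- fibroblasts and 2504 ± 1170 CPM in IL-11+ fibroblasts (mean ± SD, n = 3 each). It was 10.5-fold higher in IL-11+ fibroblasts (log2 fold change 3.39, SE 0.286, adjusted p = 1.71e-07, edgeR quasi-likelihood test, Benjamini-Hochberg adjustment).

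*Mmp10* encodes stromelysin-2, a close relative of stromelysin-1. It had 40, 26 and 31 tags in IL-11- libraries 1 to 3, and 1275, 542 and 959 tags in IL-11+ libraries 1 to 3. The gene was thus scarce in every IL-11- library and plentiful in every IL-11+ library. Its mean level was 29.4 ± 7.65 CPM in IL-11- fibroblasts and 939 ± 401 CPM in IL-11+ fibroblasts, a 31.9-fold difference with a 95% confidence interval of 20.5 to 49.9. The log2 fold change was 5.00 (SE 0.306), and *Mmp10* ranked 3 of 9334 by p-value (adjusted p = 8e-09, edgeR quasi-likelihood test, Benjamini-Hochberg adjustment). *Mmp3* contains 31 (12.4%) of the 251 windows of 50 nt at the start of the *Mmp10* transcript, so that part of the tags of both genes could have been assigned to either. Of the 251 windows at the start of the *Mmp3* transcript, 0 occurred in another gene, and no other member shared such a window.

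*Mmp13*, the collagenase that opens the triple helix of fibrillar collagens, followed the same pattern. It had 45, 20 and 35 tags in IL-11- libraries 1 to 3, and 995, 411 and 1021 tags in IL-11+ libraries 1 to 3. No value of one group came near those of the other. *Mmp13* stood at 30.2 ± 12.1 CPM in IL-11- and at 815 ± 347 CPM in IL-11+ fibroblasts, 27.0-fold higher (95% confidence interval 16.6 to 43.9). Its log2 fold change was 4.75 (SE 0.335, adjusted p = 2.92e-08, edgeR quasi-likelihood test, Benjamini-Hochberg adjustment).

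Among the 3 IL-11+ libraries, replicate 2 had the lowest normalized level of *Mmp3*, *Mmp10* and *Mmp13* (1397, 550 and 417 CPM). It also had the lowest level of *Il11* (743 CPM). *Il11* was highest in replicate 3 (2535 CPM), whereas *Mmp3*, *Mmp10* and *Mmp13* were highest in replicate 1 (3724, 1351 and 1055 CPM). Against the IL-11- library of the same number, *Mmp3* was 14.9, 7.53 and 8.59 times higher in replicates 1, 2 and 3. The same ratios were 35.4, 22.5 and 35.9 for *Mmp10* and 24.5, 22.1 and 33.9 for *Mmp13*. The smallest ratio of each gene was therefore in replicate 2, and all 9 ratios were above 7.

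**Figure D1:**
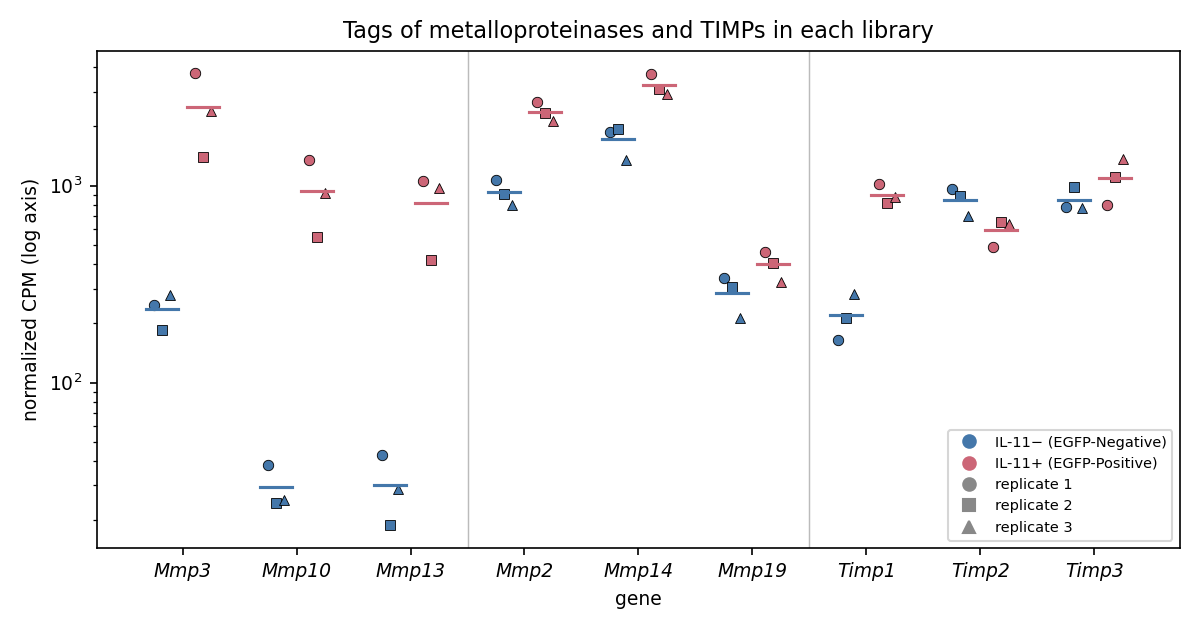
Normalized CPM (log axis) of the 9 tested metalloproteinase and TIMP genes in each of the 6 libraries, with IL-11- libraries in blue, IL-11+ libraries in red, a symbol for each replicate and a bar at the mean of each group. The groups lie farthest apart for *Mmp10* and *Mmp13*, and they overlap for *Mmp19* and *Timp3*.

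Of the gelatinases, which degrade denatured collagen and basement membrane collagen, *Mmp2* was abundant and *Mmp9* nearly absent. *Mmp2* had 1122, 963 and 972 tags in IL-11- libraries 1 to 3, and 2525, 2297 and 2242 tags in IL-11+ libraries 1 to 3. The groups did not overlap, and the libraries within each group lay close together. *Mmp2* rose from 926 ± 137 CPM in IL-11- to 2382 ± 273 CPM in IL-11+ fibroblasts. The fold change was 2.57 (95% confidence interval 1.99 to 3.33, log2 fold change 1.36, SE 0.178, adjusted p = 2.33e-05, edgeR quasi-likelihood test, Benjamini-Hochberg adjustment). *Mmp9*, the gelatinase best known from neutrophils and macrophages, had 0 tags in each IL-11- library and 1, 1 and 2 tags in IL-11+ libraries 1 to 3. All 6 values were under the floor of 3 tags, so a difference in *Mmp9* was not detectable at this depth.

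*Mmp14* encodes the membrane-anchored protease MT1-MMP, which activates the proenzyme of *Mmp2* at the cell surface. It had 1955, 2066 and 1638 tags in IL-11- libraries 1 to 3, and 3480, 3047 and 3064 tags in IL-11+ libraries 1 to 3. No IL-11- library reached the lowest IL-11+ library. The level was 1719 ± 327 CPM in IL-11- fibroblasts and 3235 ± 402 CPM in IL-11+ fibroblasts, a fold change of 1.88 (95% confidence interval 1.43 to 2.47). The adjusted p was 0.00195 (log2 fold change 0.91, SE 0.187, edgeR quasi-likelihood test, Benjamini-Hochberg adjustment), but a call also needed a fold change over 2, and *Mmp14* was not called. Without IL-11- replicate 2, on the genes that pass the filter with all 6 libraries, its log2 fold change was 1.02 and it was called higher.

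*Mmp19*, a secreted protease of basement membrane proteins, had 357, 323 and 260 tags in IL-11- libraries 1 to 3, and 437, 400 and 342 tags in IL-11+ libraries 1 to 3. On the normalized scale the groups overlapped, since IL-11+ replicate 3 (326 CPM) was below IL-11- replicate 1 (341 CPM). In each replicate, though, the IL-11+ library was higher than the IL-11- library, by 1.36, 1.33 and 1.53 times. The log2 fold change of *Mmp19* was 0.48 (SE 0.193, adjusted p = 0.11, edgeR quasi-likelihood test, Benjamini-Hochberg adjustment), and the gene was not called. Over the alternatives its Benjamini-Hochberg adjusted p ran from 0.00914, in the edgeR quasi-likelihood test with the replicate number as a block, to 0.391, with a fold change under 2 in each. *Tmem198b*, which lies on the opposite strand of *Mmp19* and overlaps it, had 18 to 39 tags per library.

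The 3 inhibitors had different patterns. *Timp1* encodes a secreted inhibitor of most soluble metalloproteinases. It had 172, 227 and 343 tags in IL-11- libraries 1 to 3, and 958, 804 and 918 tags in IL-11+ libraries 1 to 3. The groups were clearly separated. *Timp1* stood at 220 ± 58.9 CPM in IL-11- and at 902 ± 102 CPM in IL-11+ fibroblasts, 4.09-fold higher (95% confidence interval 3.07 to 5.46). Its log2 fold change was 2.03 (SE 0.198, adjusted p = 8.37e-07, edgeR quasi-likelihood test, Benjamini-Hochberg adjustment). The ratio to the IL-11- library of the same number was 6.18 in replicate 1, 3.82 in replicate 2 and 3.11 in replicate 3.

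*Timp2* encodes the inhibitor that also links the *Mmp2* proenzyme to MT1-MMP for activation. It had 1012, 938 and 850 tags in IL-11- libraries 1 to 3, and 461, 643 and 670 tags in IL-11+ libraries 1 to 3. *Timp2* was the only tested member whose IL-11+ libraries were all below the IL-11- libraries. It stood at 849 ± 137 CPM in IL-11- and at 594 ± 91.1 CPM in IL-11+ fibroblasts. The log2 fold change of -0.52 (SE 0.179, 95% confidence interval -0.89 to -0.14) did not pass the threshold (adjusted p = 0.0603, edgeR quasi-likelihood test, Benjamini-Hochberg adjustment). In the fit with a replicate block, the Benjamini-Hochberg adjusted p of the edgeR quasi-likelihood test was 0.00717, the lowest over all alternatives (highest 0.226), and the fold change stayed too small for a call.

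*Timp3* encodes an inhibitor that stays bound to the matrix. It had 819, 1050 and 934 tags in IL-11- libraries 1 to 3, and 754, 1097 and 1442 tags in IL-11+ libraries 1 to 3. The groups overlapped, with IL-11+ replicate 3 the highest of all. The level was 846 ± 124 CPM in IL-11- fibroblasts and 1096 ± 288 CPM in IL-11+ fibroblasts. *Timp3* was not called (log2 fold change 0.37, SE 0.197, adjusted p = 0.239, edgeR quasi-likelihood test, Benjamini-Hochberg adjustment), and its 95% confidence interval ran from -0.04 to 0.79.

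Together, 5 of the 9 tested members (*Mmp2*, *Mmp3*, *Mmp10*, *Mmp13* and *Timp1*) passed the test upward in IL-11+ fibroblasts, called at a fold change above 2 at an adjusted p under 0.05. By the same rule, 321 of the 9334 tested genes (3.44%) were higher and 595 (6.37%) lower, or 341 lower without IL-11- replicate 1 and 355 without IL-11- replicate 2. With the edgeR quasi-likelihood test, 0 members were called lower, and 0 with DESeq2. With an unadjusted p under 0.05 and no fold change threshold, 1 member (*Timp2*) was lower. The groups did not overlap for 7 members, with IL-11+ libraries on the upper side for 6 and on the lower side for 1, compared with 14.5% and 16.7% of all tested genes. Over the 9 members the log2 fold change had a median of 1.36, and over all tested genes of -0.01. Each of the 9 members had at least 20 tags in every library, so that none passed the filter through 1 group alone. Fewer cells of a type and less RNA per cell cannot be told apart in such bulk libraries.

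To see how proteases and inhibitors stood to each other, the tags of the metalloproteinase members and those of the TIMPs were summed in each library. The metalloproteinases summed to 3609, 3387 and 2689 CPM in IL-11- libraries 1 to 3, and to 12960, 8198 and 9667 CPM in IL-11+ libraries 1 to 3. The TIMPs summed to 1912, 2087 and 1747 CPM, and to 2303, 2583 and 2890 CPM. Both sums were higher in each IL-11+ library than in any IL-11- library, the metalloproteinases by the larger factor (ratio of means 3.18, against 1.35 for the TIMPs). The ratio of metalloproteinase to TIMP tags was 1.89, 1.62 and 1.54 in IL-11- libraries and 5.63, 3.17 and 3.35 in IL-11+ libraries. On the log2 scale the groups differed by 1.22 in this ratio, which was not tested. These sums count RNA tags and not enzyme activity.

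The composition of both sums differed too. *Mmp3*, *Mmp10* and *Mmp13* together made up 9.15%, 6.76% and 12.4% of the metalloproteinase tags in IL-11- libraries 1 to 3, and 47.3%, 28.8% and 44.3% in IL-11+ libraries 1 to 3. *Mmp14* made up 53.1 ± 3.93% of them in IL-11- fibroblasts and 32.1 ± 4.90% in IL-11+ fibroblasts (mean ± SD, n = 3 each). The share of *Mmp14* was lower in IL-11+ fibroblasts although its own level was higher. Among TIMP tags, *Timp1* accounted for 11.6 ± 3.95% in IL-11- fibroblasts and 35.3 ± 7.62% in IL-11+ fibroblasts, and *Timp2* for 44.3 ± 5.52% and 22.9 ± 2.15%. *Timp3* had a near equal share in both groups, 44.1 ± 3.25% and 41.8 ± 6.55%.

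**Figure D2:**
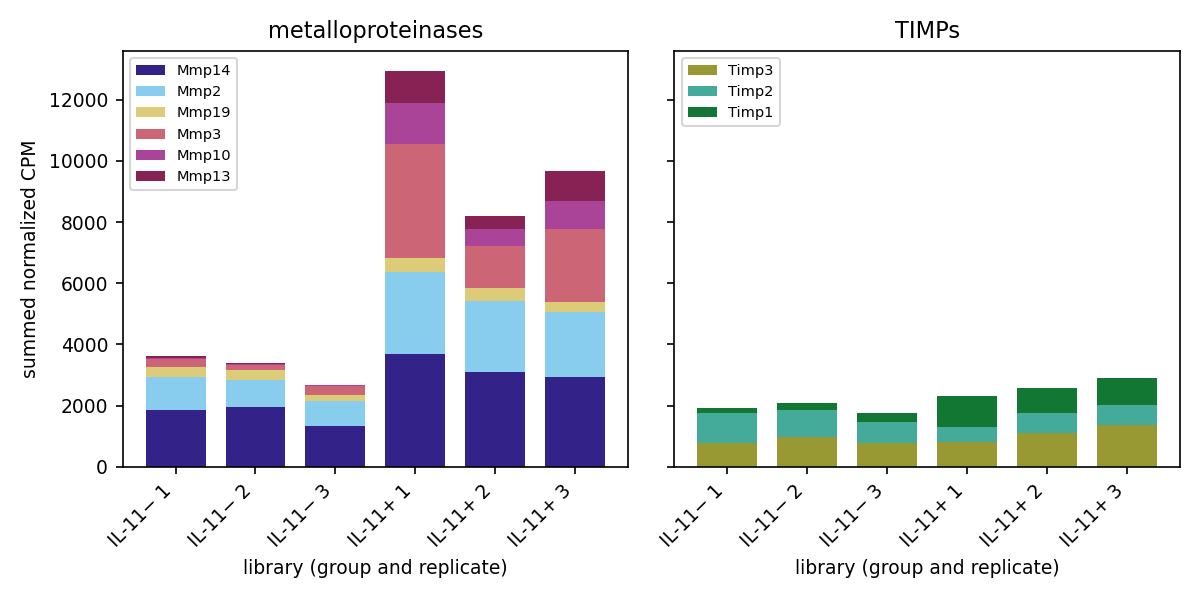
Summed normalized CPM of 6 metalloproteinase genes (left) and 3 TIMP genes (right) in each library, with each gene in its own color and the axes starting at 0. The metalloproteinase sum is 2689 to 3609 CPM in IL-11- libraries and 8198 to 12960 CPM in IL-11+ libraries.

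The rest of the family was listed as 17 genes, of which 13 had a row and 4 were tested. *Mmp11*, stromelysin-3, had 52, 36 and 33 tags in IL-11- libraries 1 to 3 and 11, 13 and 15 tags in IL-11+ libraries 1 to 3. It was lower in IL-11+ fibroblasts (log2 fold change -1.48, SE 0.314, adjusted p = 0.00269, edgeR quasi-likelihood test, Benjamini-Hochberg adjustment), in contrast to the stromelysins *Mmp3* and *Mmp10*. The membrane-type genes *Mmp16* (log2 fold change -0.99) and *Mmp17* (-1.36) were not called in this fit, but both were called lower with the replicate number as a block, at log2 fold changes of -1.01 and -1.31. *Mmp23* (log2 fold change -0.92) was not called in either fit. All 4 genes had their IL-11+ libraries below the IL-11- libraries, as had 16.7% of all tested genes. *Mmp17* passed the filter through the IL-11- libraries alone, so its place in this count says little. The remaining 9 genes had fewer than 10 tags in every library. Among them, *Mmp12*, macrophage elastase, had 0 tags in each IL-11- library and 9, 4 and 2 in IL-11+ libraries 1 to 3.

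*Mmp3*, *Mmp10* and *Mmp13* lie in a cluster of metalloproteinase genes on mouse chromosome 9 (GRCm38), at chr9:7445822-7455975, chr9:7502352-7510240 and chr9:7272514-7283331, all on the plus strand and within 238 kb. Each has 10 exons. The other members are scattered, with *Mmp2* at chr8:92827291-92853420, *Mmp9* at chr2:164940780-164955850, *Mmp14* at chr14:54431612-54445364, *Timp1* at chrX:20870166-20874735 and *Timp2* at chr11:118301069-118355740. *Mmp19* (chr10:128790910-128800824) and *Timp3* (chr10:86300372-86349506) are far apart on chromosome 10. Within 500 kb of *Mmp3*, 23 genes are annotated, and 13 of them had a row. Between and beside the 3 members, *Mmp12*, *Mmp1b*, *Mmp8* and *Mmp27* had at most 9 tags in any library.

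Of the genes that flank the cluster, all but *Birc3* had tags that overlapped between the groups. *Dync2h1* had 33 to 50 tags in IL-11- and 35 to 36 in IL-11+ libraries, and *Dcun1d5*, next to *Mmp13*, had 45 to 51 and 45 to 82. On the far side, *Tmem123* had 94 to 119 and 96 to 116 tags, *Birc2* 30 to 43 and 24 to 37, and *Yap1* 79 to 94 and 85 to 97. *Birc3* had 177, 185 and 275 tags in the IL-11- group, against 142, 150 and 147 in the IL-11+ libraries, all of them lower. None of these flanking genes had the range between groups that *Mmp3*, *Mmp10* and *Mmp13* had.

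**Figure D3:**
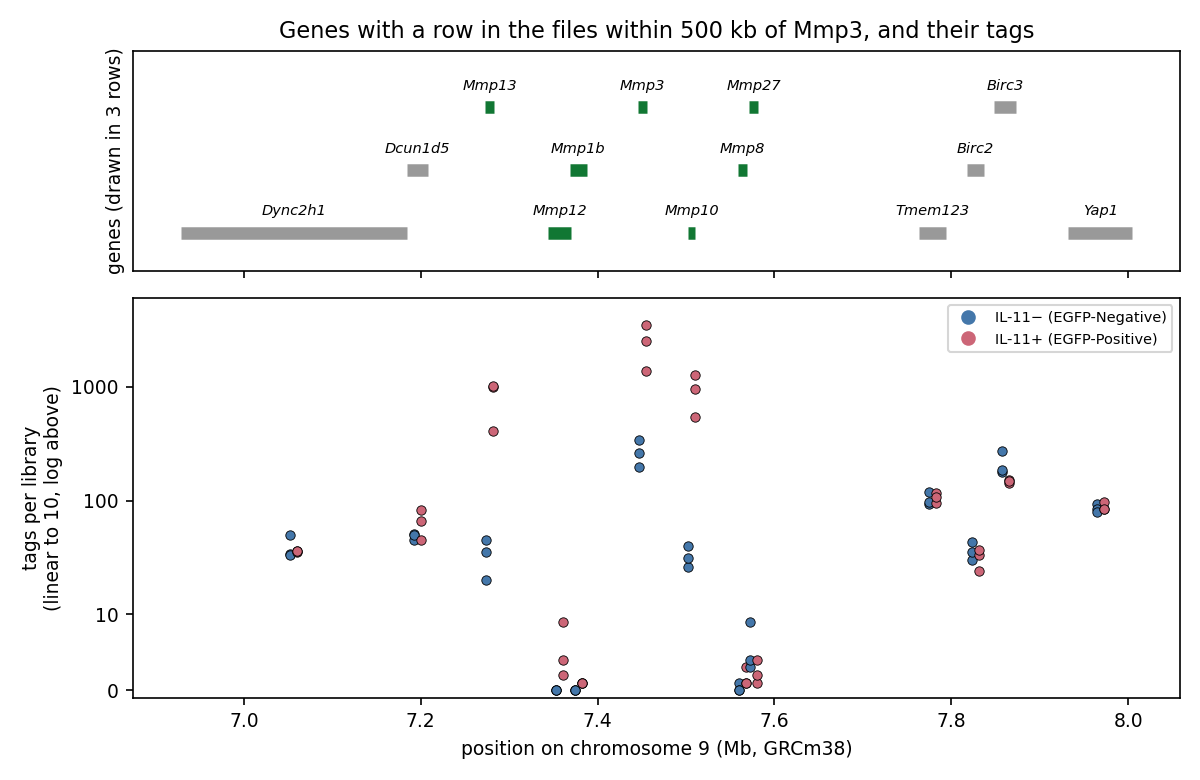
Genes with a row in the files within 500 kb of *Mmp3* by their position on chromosome 9 (upper panel, metalloproteinases in green), and their tags in each library (lower panel, linear to 10 tags and logarithmic above, IL-11- in blue and IL-11+ in red). *Mmp13*, *Mmp3* and *Mmp10* are high in the IL-11+ libraries, and the genes between and around them are not.

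Since these 3 neighbours were high in the same libraries, their promoters were compared. RefSeq promoter windows, from 250 bases before to 50 after the start of the gene (GRCm38.p6), were at hand for *Mmp3*, *Mmp10*, *Mmp13*, *Mmp14*, *Timp1*, *Timp2* and *Timp3*, 7 of the 10 members. They were searched on both strands for TGAGTCA, the motif of AP-1 (dimers of Fos and Jun proteins), for TGTGGTT, the motif of RUNX proteins, and for TATAAA, the TATA box. The AP-1 motif occurred in *Mmp3* (46 to 40 bases before the start), *Mmp10* (63 to 57 bases before) and *Mmp13* (35 to 29 bases before, on the other strand), and in none of the other 4 members. TATAAA was found in the same 3 genes, at 7 to 2, 29 to 24 and 16 to 11 bases before the start. TGTGGTT was found only in *Mmp13*, on the other strand, 119 to 113 bases before the start. Among 32851 promoter windows of the same length, 5.2% held the AP-1 motif, 5.27% the RUNX motif and 13.6% TATAAA. Such a match is a description of the letters, and binding was not measured.

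The 100 bases before the RefSeq start are shown for the 3 genes, because they hold both shared motifs in the same order. They are written 5′ to 3′ on the plus strand (GRCm38.p6), with the AP-1 motif and TATAAA in capitals, from chr9:7445722-7445821 for *Mmp3*, chr9:7502242-7502341 for *Mmp10* and chr9:7272414-7272513 for *Mmp13*.
Mmp3: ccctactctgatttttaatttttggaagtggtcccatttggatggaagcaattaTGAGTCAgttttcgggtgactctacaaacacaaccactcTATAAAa
Mmp10: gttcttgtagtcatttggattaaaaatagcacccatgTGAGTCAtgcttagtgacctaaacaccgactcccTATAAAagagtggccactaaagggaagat
Mmp13: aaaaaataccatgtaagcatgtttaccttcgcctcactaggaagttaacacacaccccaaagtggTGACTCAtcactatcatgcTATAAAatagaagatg
In all 3 stretches the AP-1 motif lies upstream of TATAAA, without overlap.

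Elsewhere in the family, 15 of the other genes had a promoter window. The AP-1 motif was in 4 of them (*Mmp12*, *Mmp1b*, *Mmp1a* and *Mmp7*), all in the chromosome 9 cluster, TATAAA in 7 and TGTGGTT in 2. In *Mmp12*, *Mmp1b* and *Mmp1a* the AP-1 motif also lies upstream of TATAAA, and in *Mmp7* TATAAA lies on both sides of it. *Mmp12* and *Mmp1b* hold the same AP-1 letters as *Mmp3* and had at most 9 tags in any library. All of these tags were in IL-11+ libraries, at levels too low to compare. Tags of *Mmp1a* and *Mmp7* were not analysed here. Of 8 listed genes for AP-1 proteins, all tested, 2 were called lower in IL-11+ fibroblasts (6.37% over all tested genes), and the other 6 were not called. The median log2 fold change of the list was -0.83, against -0.01 for all tested genes. The 6 that were not called had log2 fold changes of -0.95 (*Fos*), -0.97 (*Fosb*), -0.70 (*Jund*), -0.47 (*Fosl2*), -0.22 (*Jun*) and 0.31 (*Fosl1*). *Atf3* had 1152, 1487 and 780 tags in the IL-11- group, against 219, 303 and 155 in the IL-11+ libraries. It fell by 2.19 on the log2 scale (SE 0.270, adjusted p = 1.27e-05, edgeR quasi-likelihood test, Benjamini-Hochberg adjustment), and *Junb* fell by 1.01.

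By likeness over the 6 libraries, *Mmp13* was closest to its neighbour *Mmp10*. Likeness was measured as the root mean square difference of log2 normalized CPM after centring each gene on its mean, over 1684 tested genes with at least 100 tags on average. The difference was 0.264 for *Mmp10*, 0.279 for *Cemip*, which takes part in hyaluronan breakdown, and 0.700 for *Nppc*, a natriuretic peptide. *Mmp3* was closest to the cytokine gene *Csf3* (0.332), the activin subunit gene *Inhba* (0.384) and *Igfbp5* (0.421). *Timp1* was closest to *Ptgs2* (0.104), the inducible cyclooxygenase, *Fgf7* (0.155) and *Sod3* (0.202). *Csf3*, for example, had 52, 44 and 70 tags in the IL-11- group, against 721, 420 and 348 in the IL-11+ libraries. *Ptgs2* had 487, 629 and 853 tags in the IL-11- group, against 2492, 2154 and 2871 in the IL-11+ libraries. The centring keeps the gap between the groups, so genes with similar fold changes come out close. The log2 fold change was 3.35 for *Csf3* and 3.39 for *Mmp3*. Among IL-11+ libraries, *Csf3* was lowest in replicate 3 and *Mmp3* in replicate 2, so likeness does not mean that both varied together within a group.

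Of 12 listed genes that activate or restrain metalloproteinases, 10 were tested. Most of these, 7, were not called, 2 were called higher and 1 lower (3.44% and 6.37% over all tested genes), and the median log2 fold change was 0.32. *Serpine2*, an inhibitor of thrombin and plasminogen activators, had 315, 222 and 232 tags in the IL-11- group, against 1496, 730 and 1361 in the IL-11+ libraries. It rose by 2.37 on the log2 scale (SE 0.248, adjusted p = 1.91e-06, edgeR quasi-likelihood test, Benjamini-Hochberg adjustment), with its lowest IL-11+ value in replicate 2, as for *Mmp3*, *Mmp10* and *Mmp13*. *Plaur*, the urokinase receptor, rose by 1.13 on the log2 scale. *Plat*, tissue plasminogen activator, had 367, 272 and 356 tags in the IL-11- group, against 90, 94 and 131 in the IL-11+ libraries, and fell by 1.51. *Furin*, which processes the *Mmp14* proenzyme, was not called (log2 fold change 0.47), nor was *Reck*, a membrane-bound inhibitor of metalloproteinases (log2 fold change -0.56).

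Of 13 listed genes for substrates of the proteases, all tested, 5 were called higher and 1 lower (3.44% and 6.37% over all tested genes). Their median log2 fold change was 0.67, against -0.01 for all tested genes. *Col3a1*, a fibrillar collagen chain cut by *Mmp13*, had a log2 fold change of 1.04, and *Col5a1* of 1.07. The basement membrane collagens *Col4a1* and *Col4a2*, substrates of gelatinases and stromelysins, also rose. *Col4a1* had 1217, 1138 and 1021 tags in IL-11- libraries and 2858, 2478 and 1493 in IL-11+ libraries, and *Col4a2* had a log2 fold change of 1.16. *Col14a1* fell by 2.07. *Spp1*, encoding osteopontin, which *Mmp3* can cleave, had 1, 0 and 0 tags in the IL-11- group, against 203, 27 and 29 in the IL-11+ libraries. Its level among IL-11+ libraries thus rested mostly on replicate 1. *Spp1* passed the filter through the IL-11+ libraries alone, so its place among the substrates called higher says little. The type I collagen gene *Col1a1* was not called (log2 fold change 0.35).

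Markers were read to check the cells. All 8 fibroblast markers were tested, with *Dcn* the most abundant and *Thy1* at 59 to 125 tags in IL-11- libraries. Their summed level was 20920, 20750 and 23560 CPM in IL-11- and 41070, 32860 and 29550 CPM in IL-11+ libraries, and 2 of them (*Col3a1* and *Pdpn*) were called higher. The other 6 were not called. Of these, *Dcn*, *Thy1* and *Col1a2* (log2 fold changes 0.67, 0.88 and 0.42) had all IL-11+ libraries on the upper side, *Lum* (-0.64) had them all on the lower side, and the groups overlapped for *Pdgfra* (0.22) and *Col1a1* (0.35). Both groups thus carried fibroblast RNA, as labelled.

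Markers of smooth muscle, and some of pericytes, were lower in IL-11+ fibroblasts. All 6 smooth muscle markers were called lower, with a summed level of 2169, 2674 and 3396 CPM in IL-11- and 81.6, 132 and 293 CPM in IL-11+ libraries and *Myh11* the most abundant. Of 6 pericyte markers 3 (*Rgs5*, *Cspg4* and *Notch3*) were called lower, with list sums of 2628, 2228 and 2023 CPM in IL-11- and 1068, 895 and 793 CPM in IL-11+ libraries and *Rgs5* the most abundant. The other 3 were not called, with log2 fold changes of 0.71 for *Kcnj8*, 0.66 for *Abcc9* and -0.38 for *Pdgfrb*, so that the pericyte list did not move in one direction. The smooth muscle marker *Cnn1* and the pericyte marker *Notch3* passed the filter through the IL-11- libraries alone, so their places in these counts say little. The called smooth muscle and pericyte markers were lower where *Mmp3*, *Mmp10*, *Mmp13*, *Mmp2* and *Timp1* were higher. Their part in the differences of the metalloproteinases and TIMPs was not tested.

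Leukocyte RNA was scarce, as were *Mmp9*, *Mmp12* and *Mmp8*, which macrophages and neutrophils are known to make. Of the 7 macrophage markers with a row, 5 had fewer than 10 tags in every library, among them *Ptprc*, which encodes the CD45 used in the gate. The summed macrophage markers stood at 29.6, 28.3 and 15.6 CPM in IL-11- and 54.1, 44.7 and 18.1 CPM in IL-11+ libraries. *Cd14*, the most abundant, was the 1 tested and was higher in IL-11+ libraries (36, 31 and 13 tags, against 10, 4 and 5). Among IL-11- libraries only replicate 1 reached 10 tags, so *Cd14* was tested because of the IL-11+ libraries, and its direction says little. Neutrophil markers summed to 23.9, 19.8 and 23.8 CPM in IL-11- and 47.7, 22.3 and 35.3 CPM in IL-11+ libraries. *Cxcr2* was the most abundant and the only one tested, and was not called, and *S100a8* had 2, 4 and 2 tags in the IL-11- group, against 13, 1 and 12 in the IL-11+ libraries. The part of these cells in the few *Mmp9* and *Mmp12* tags was not tested.

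Markers of further cell types were read in the same way. Of 5 endothelial markers with a row, *Tek* was the most abundant and was tested and lower. Among IL-11+ libraries only replicate 1 reached 10 tags of *Tek*, so its direction says little. The endothelial sums were 40.1, 27.3 and 36.1 CPM in IL-11- and 18.02, 8.12 and 6.68 CPM in IL-11+ libraries. None of 5 epithelial markers with a row was tested, with *Krt8* the most abundant and sums of at most 12.3 CPM. None of 4 mesothelial markers was tested either, with *Wt1* the most abundant and sums of at most 15.6 CPM, which was in an IL-11- library. Their part in the differences of the metalloproteinases and TIMPs was not tested.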

How the data were processed

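5′Tag-seq libraries were made from polyA RNA of sorted EGFP-Positive and EGFP-Negative cells (n = 3 libraries per group). According to the methods and the processing notes of the submitters, reads were trimmed with Cutadapt 1.18 and mapped to RefSeq mm10 RNA in one orientation with Bowtie2 2.2.5. The authors deposited the raw tag count of each gene symbol, without normalization. How tags that fit several genes were counted is not given in the sources used here. *Cep295nl*, on the strand of *Timp2*, and *Syn1* and *Syn3*, opposite *Timp1* and *Timp3*, overlap members and had at most 7 tags in any library.

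Genes that reached 10 tags in 3 or more of the 6 libraries were fitted together in R 4.3.3 with edgeR 4.0.16 (TMM normalization, glmQLFit and glmQLFTest, Benjamini-Hochberg adjustment over all 9334 tested genes). Calls needed a fold change above 2 at an adjusted p under 0.05, as in the methods. Normalized CPM use the tags of tested genes as the library total, scaled by the TMM factor. SE is the log2 fold change divided by the square root of F. The fit was checked on simulated data with 4-fold and 8-fold changes, the same spread setting for all genes and no replicate effect. That check does not cover smaller changes.

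Replicate numbers come from the labels. The methods name 3 mice, and deviations of same-numbered libraries from their group means correlated across 5063 genes (r = 0.23, 0.18 and 0.26 for replicates 1, 2 and 3), so the numbers were taken to pair the libraries. Genes are not independent replicates, and libraries with different numbers were not compared in this way. The main fit had no replicate block, so its p-values do not use this pairing. The fit with the block is given as an alternative.

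The members and gene lists were chosen with earlier results of these data known. Named genes are all members, tested genes of the rest of the family, genes within 500 kb of *Mmp3*, called genes of each list, cell type markers, *Il11* and the 3 genes most like *Mmp3*, *Mmp13* and *Timp1*. *Furin*, *Reck*, *Col1a1*, the AP-1 genes that were not called and genes overlapping a member were chosen after their values were seen. Lists covered the rest of the family, activation and control, substrates, AP-1, and markers of fibroblasts, smooth muscle, pericytes, macrophages, neutrophils, endothelium, epithelium and mesothelium. The result of 1 further marker list is not reported here. Positions come from GENCODE mouse release M21 (GRCm38), and the first 300 nt of member transcripts, in windows of 50 nt, were searched for in transcripts of all other genes.

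Alternatives were RLE, library size only, iterative TMM with 3 rounds, DESeq2 1.42.0, other filters on low counts, the replicate block, the adjusted p alone, and each library left out in turn. Leaving out each library while keeping the filter of all 6, and sums per kb of transcript, were added after seeing the data.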

Additional observations from a re-analysis of the deposited data

How the results depend on the processing

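For the 9 tested members, 178 of 180 log2 fold changes under the alternatives kept the direction and the call, which needs both thresholds, and 0 reversed. The adjusted p alone crossed 0.05 for *Mmp19* (with the block, no filter, and without IL-11+ replicate 3) and for *Timp2* (with the block, library size only, and without IL-11- replicate 3), at fold changes under 2. The other 2 were *Mmp14*, called higher with the adjusted p alone (log2 fold change 0.91) and without IL-11- replicate 2 on the 6-library filter (1.02), a filter chosen after seeing the data. With the replicate block, 5 members were again called higher and 0 lower, and 337 genes were called higher and 648 lower, and of the named genes the block changed only the calls of *Mmp16* and *Mmp17*. *Mmp10* ranged from 4.65 to 5.28, *Mmp13* from 4.498 to 5.08, *Mmp3* from 2.998 to 3.69, *Timp1* from 1.84 to 2.25, *Mmp2* from 1.25 to 1.48 and *Timp2* from -0.66 to -0.38. With the adjusted p alone, 638 tested genes were higher. Without one library, 341 to 579 tested genes were lower (483 to 580 on the 6-library filter), since fewer samples entered the fit and fewer genes passed the filter. The log2 difference in the ratio of metalloproteinase to TIMP tags was 1.22, and 0.96 to 1.37 without one library. It was 1.70 without the gene with the most tags in each sum (*Mmp14* and *Timp3*), and 0.81 per kb of the longest transcript, a scale chosen after seeing the data. Both alternatives change, by construction, the weight of single genes in the sums. At this depth, *Mmp9*, *Mmp12* and other family genes under 10 tags could not be compared.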
